A study of Mus musculus with 2 samples.

Results

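The mitochondrial carriers and the protein import machinery were taken as every probe set whose single gene symbol begins with Slc25a, Timm or Tomm and a number, or is Ucp1, Ucp2 or Ucp3. This gave 145 of the 45101 probe sets on the array and 69 of the 18193 genes that have a probe set of their own. Metabolite carriers made up 46 of these genes (96 probe sets) and import machinery 23 (49 probe sets). No probe set carried Ucp2 as its only symbol, and that gene was not analysed here. Total RNA came from 3T3-L1, mouse preadipocytes that become fat cells under insulin, dexamethasone and 3-isobutyl-1-methylxanthine, and was hybridised to Affymetrix arrays. The 2 groups were differentiating 3T3-L1 cells given an siRNA specific for Phf21a, which encodes the histone reader BHC80, and the same cells given a control siRNA (siGL3), with 1 array each. Both groups were induced 24 h after transfection and collected 24 h after that, so both carry the transfection and the induction.

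The inner mitochondrial membrane is tight to metabolites, and carriers of the SLC25 family, each a small protein of repeated membrane-spanning modules, pass nucleotides, phosphate, carboxylates, amino acids and cofactors across it. The uncoupling proteins are members of that family that can let protons back into the matrix, as Ucp1 does in brown fat. Nearly all mitochondrial proteins, the carriers among them, are made in the cytosol and enter through the TOM complex of the outer membrane. The TIM23 complex then sorts proteins with a presequence into the matrix and inner membrane, while small TIM chaperones hand carriers to the TIM22 complex. Several of the roles given below were established with the human or yeast proteins.

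A group of 1 array has no replicate error, and no test was possible. Each ratio sets the Phf21a siRNA array over the control array, on the log2 scale, and is given ± a local spread, the scatter of log2 ratios among the 1000 detected genes nearest in signal. This spread comes from the same 2 arrays, includes any true differences, and says nothing of the variation between cultures. Values are MAS5 signal intensities, a gene is given by its brightest detected probe set, with those ending in _x_at, a suffix for probes that can match other sequences, used only where no other was detected, and "detected" means a signal on at least 1 array at or above the pooled median of 51.3. The array number limits the precision, and in bulk RNA fewer cells of a type and less RNA per cell cannot be told apart. Phf21a itself had a signal of 306 with its siRNA and 768 with the control siRNA (log2 ratio -1.33), and its other detected probe sets were at -1.35 and -0.73. Of the adipogenic markers 7 of 9 on the array were detected, while Cebpa and Adipoq were not. The 9 together had a summed signal of 24314 with Phf21a siRNA and 19634 with control siRNA, which the brightest genes dominate. Among the 7, Pparg (0.67), Fabp4 (0.74) and Plin2 (0.77) were at least 1.5-fold higher and 0 were lower by that size. Of all detected genes 15.1% were higher and 13.9% lower by that size. The markers did not all rise, as Lpl was at -0.15 (second probe set -0.43) and Cebpb at -0.0033 (second probe set -0.32). The dim Cd36 was at 0.50 ± 1.06. Cebpd, at 0.10, had another detected probe set at -2.01. Of the fibroblast and preadipocyte markers 9 of 9 were detected, with sums of 85028 with Phf21a siRNA and 91101 with control siRNA, which the brightest genes dominate. Dlk1 was 2.07-fold lower (-1.05), Pdgfrb 1.79-fold higher (0.84), and the median was -0.16. None of the 6 brown adipocyte markers or the 5 endothelial markers reached the limit, and 2 of 7 leukocyte markers did, Cd68 and Lyz2, with Ptprc at 12.2 with Phf21a siRNA and 6.87 with control siRNA. The limit was also reached by 2 of 5 muscle markers and 2 of 4 epithelial markers, the brightest being Epcam at 79.5 with Phf21a siRNA and 146 with control siRNA. The part of these markers in the values below was not tested.

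Of the 69 genes 57 were detected, 36 carriers and 21 import genes. Import machinery lay slightly and mostly below 0. The carriers were centred near 0 and spread further in both directions than the import genes, about as far as all detected genes. The carriers had a median log2 ratio of 0.02, with 18 genes above and 18 below 0, and quartiles at -0.47 and 0.23. The import machinery had a median of -0.23, with 6 genes above and 15 below 0, and quartiles at -0.30 and 0.13. The median over all 11301 detected genes was 0.03, with 52.2% above 0 and quartiles at -0.33 and 0.38. The medians of carriers and import machinery thus differed by 0.24, a description of 2 arrays that carries no test. The difference was 0.16 with the probe sets of a gene averaged and 0.13 with no filter on low signals.

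At least 1.5-fold differences were few among import genes, as in other mitochondrial groups, while the carriers were somewhat below the share of all detected genes. In either direction they were seen in 25% of carriers and 4.76% of import genes, against 29.0% of all detected genes. The share was 6.06% for complex I subunits and 3.95% for mitochondrial ribosomal proteins. It was 5.88% and 4.76% for the carrier and import partners listed below, so a low share is not particular to the import genes. A difference of 1.5-fold or more was reached upward by 3 carriers and downward by 6, and among import genes upward by 0 and downward by 1, where 15.1% of all detected genes were higher and 13.9% lower by that size. Slc25a16 was the single member past 2-fold, against 5.66% of all detected genes 2-fold higher and 5.44% 2-fold lower. Only 8 of the 36 carriers (22.2%) and 3 of the 21 import genes (14.3%) lay further from 0 than their local spread, against 33.1% of all detected genes. Carriers had a median higher signal of 979 and import genes, which were brighter, one of 3390, and the median local spread was 0.50 for carriers and 0.41 for import genes. Among genes at or above the pooled 75th percentile (461), 4 of 26 carriers (15.4%) and 1 of 20 import genes (5%) passed 1.5-fold in either direction. The share of all bright genes was 23.0%, with 12.9% higher and 10.1% lower. By probe set, 6 of 74 detected carrier probe sets passed 1.5-fold upward and 18 downward, against 14.2% and 16.1% of all detected probe sets, and 8 of those 18 belong to Slc25a5. Of 43 detected import probe sets 1 passed it upward and 4 downward.

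Signs and counts past 1.5-fold move with the scaling of the arrays. The array's poly-A control RNAs were higher with Phf21a siRNA by a median log2 of 0.73 over 24 detected probe sets, and its hybridisation controls by 0.23 over 18. Scaled to the poly-A controls the median of all detected genes moved to -0.70. The carriers then had a median of -0.71, with 1 gene past 1.5-fold upward and 23 downward, and the import machinery a median of -0.95, with 0 higher and 16 lower, against 2.86% of all detected genes higher and 58.7% lower under that scaling. Of the 57 members 2 stayed above 0, Slc25a16 at 0.73 and Slc25a44 at 0.01, against 10.9% of all detected genes. Hybridisation control scaling gave 1 carrier higher and 10 lower, and 0 import genes higher and 3 lower, against 8.91% of all detected genes higher and 23.3% lower. It left 13 members above 0, of 24 on the deposited scale, against 34.9% of all detected genes. Such a scaling moves every gene alike, so it cannot alter the difference between carriers and import machinery. The words "higher" and "lower" below refer to the deposited scale.

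**Figure D1:**
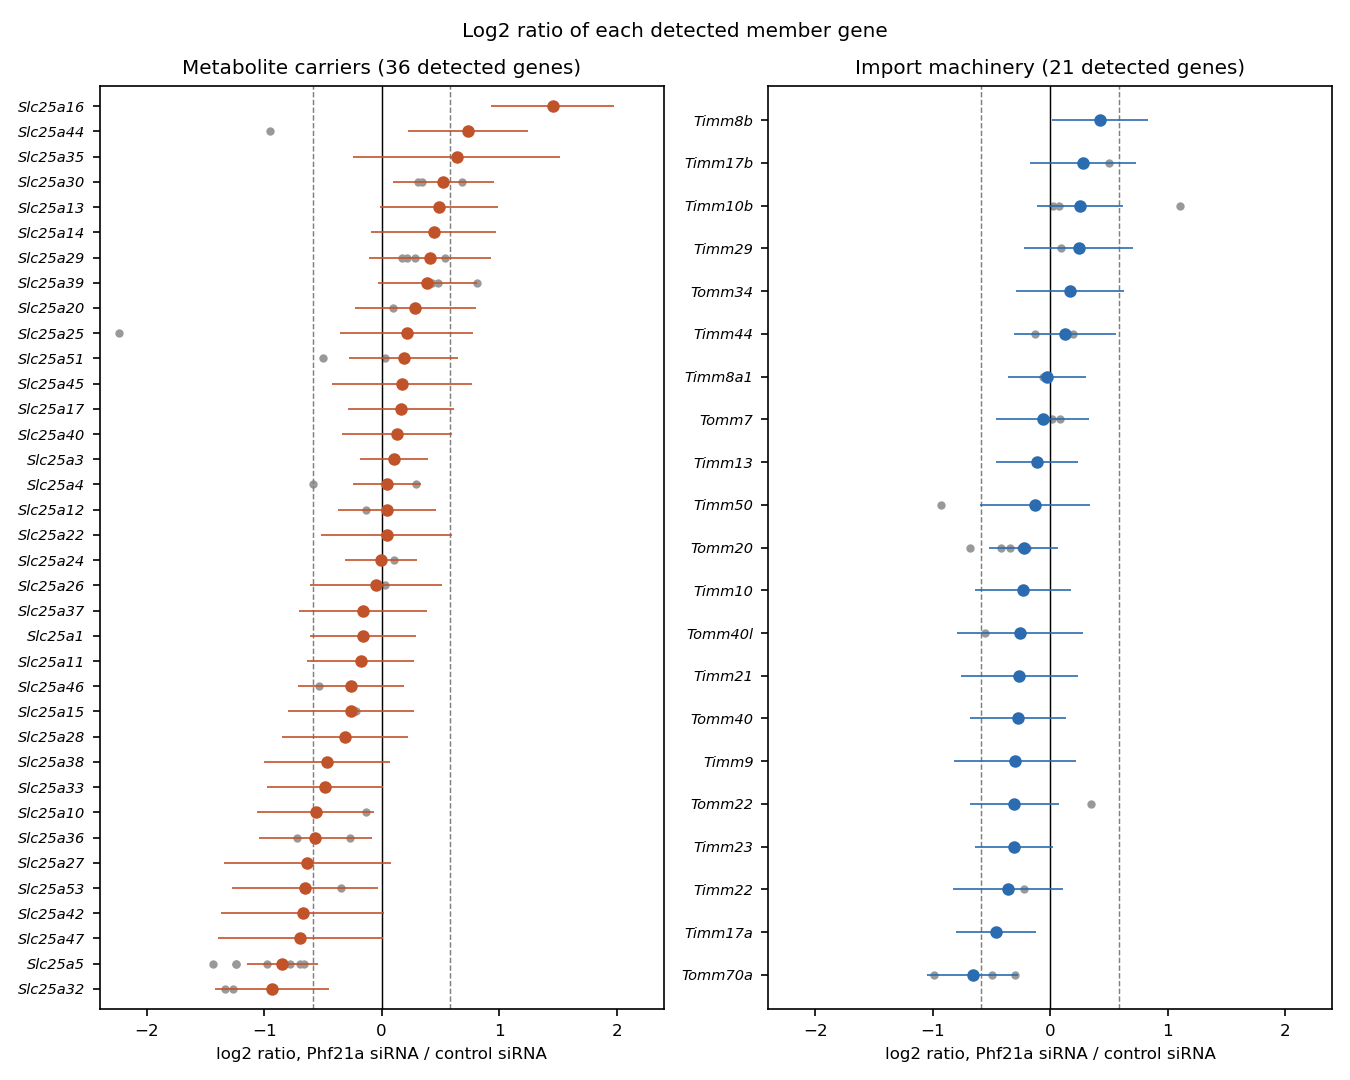
Log2 ratio of Phf21a siRNA over control siRNA, drawn per detected carrier (left) and import gene (right). Large points are the probe set that stands for the gene (the brightest detected, _x_at only where no other was) with bars of ± the local spread, grey points are the gene's other detected probe sets, and dashed lines mark 1.5-fold. Carriers run from -0.93 for Slc25a32 to 1.45 for Slc25a16, and import genes from -0.66 for Tomm70a to 0.42 for Timm8b.

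**Figure D2:**
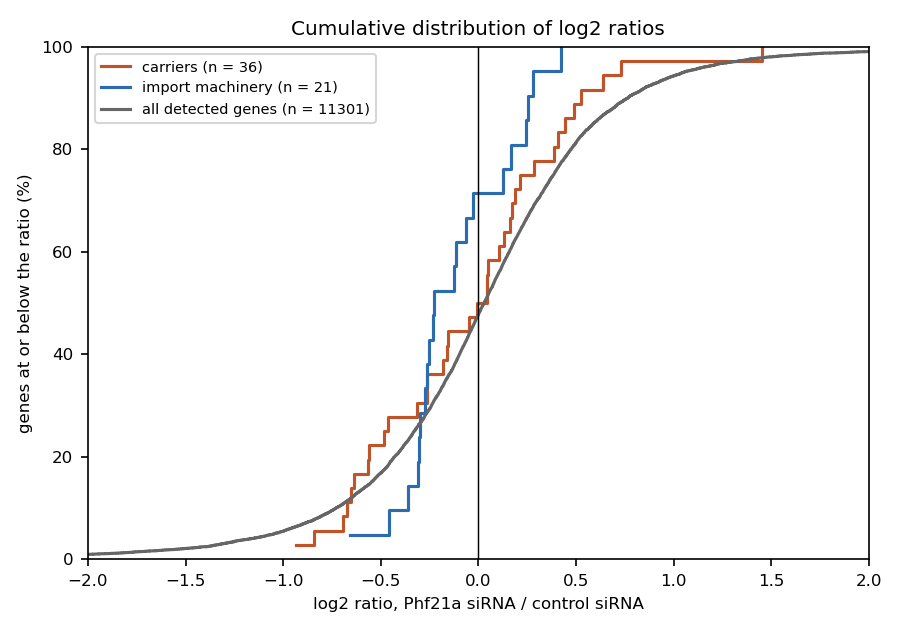
Percentage of genes (vertical axis) at or below a given log2 ratio of the Phf21a siRNA array over the control array (horizontal axis), for the 36 carriers, the 21 import genes and all 11301 detected genes. The median lies at 0.02 for carriers, at -0.23 for import genes, whose curve runs to the left, and at 0.03 for all genes.

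The adenine nucleotide carriers, which exchange matrix ATP for cytosolic ADP, differed. Slc25a5, the ADP/ATP carrier of growing cells (also called ANT2), had a signal of 7616 with Phf21a siRNA and 13675 with control siRNA. It was 1.80-fold lower, a log2 ratio of -0.84 ± 0.30, and 8 of its 8 detected probe sets were at least 1.5-fold lower, between -1.44 and -0.66. Of those probe sets 6 end in _x_at, and the 1 without any suffix was at -1.24 (848 with Phf21a siRNA, 1998 with control siRNA). Slc25a4, the ADP/ATP carrier of heart and muscle (ANT1), had 18292 with Phf21a siRNA and 17693 with control siRNA (0.05 ± 0.29). Its other bright probe sets were at 0.06 and 0.29, and a dim one was at -0.58 (54.6 with Phf21a siRNA, 81.8 with control siRNA). The log2 ratio of Slc25a4 exceeded that of Slc25a5 by 0.89. These genes are close copies of one another, and cross-hybridisation between them was not tested. Slc25a31, the testis form, was not detected.

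The sequences around the start sites of this pair are shown because the 2 genes have the same transport function and differed in log2 ratio, and those of Slc25a16 and Tomm70a because they lay furthest from 0 among the bright carriers above 0 and among the import genes. Timm17a and Timm17b, described below, are shown as a further pair. Each runs 5′ to 3′ from 250 bases before to 50 bases after the start in RefSeq (GRCm38.p6), and capitals mark matches on either strand to 8 motifs. The motifs were the CCAAT box (CCAAT), the E-box (CACGTG), the ETS core (CCGGAAGT), the NRF1 core (GCATGCGC), the ERR element (TCAAGGTCA), the cyclic AMP response element (TGACGTCA), the YY1 core (AAGATGGC) and the TATA box (TATAAA), and no 2 matches in these 6 sequences overlapped.
Slc25a5, chrX:36795347-36795646, plus strand: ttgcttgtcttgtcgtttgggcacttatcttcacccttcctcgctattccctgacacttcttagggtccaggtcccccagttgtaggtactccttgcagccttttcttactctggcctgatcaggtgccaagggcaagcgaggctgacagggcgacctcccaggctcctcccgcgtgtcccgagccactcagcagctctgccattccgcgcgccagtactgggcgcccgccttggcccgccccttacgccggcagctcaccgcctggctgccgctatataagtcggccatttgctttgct
Slc25a4, chr8:46211013-46211312, minus strand: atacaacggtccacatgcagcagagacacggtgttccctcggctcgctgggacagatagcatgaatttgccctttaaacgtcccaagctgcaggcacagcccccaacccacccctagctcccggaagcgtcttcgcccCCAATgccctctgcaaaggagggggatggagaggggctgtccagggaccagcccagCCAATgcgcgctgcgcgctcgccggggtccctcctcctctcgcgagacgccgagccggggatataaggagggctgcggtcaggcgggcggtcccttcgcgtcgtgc
Slc25a16, chr10:62920383-62920682, plus strand: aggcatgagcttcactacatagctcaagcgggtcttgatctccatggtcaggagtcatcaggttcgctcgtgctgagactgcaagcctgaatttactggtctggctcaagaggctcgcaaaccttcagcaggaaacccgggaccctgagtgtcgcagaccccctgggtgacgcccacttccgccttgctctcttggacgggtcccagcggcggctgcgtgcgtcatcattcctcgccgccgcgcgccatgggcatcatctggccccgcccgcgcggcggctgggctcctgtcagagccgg
Tomm70a, chr16:57121464-57121763, plus strand: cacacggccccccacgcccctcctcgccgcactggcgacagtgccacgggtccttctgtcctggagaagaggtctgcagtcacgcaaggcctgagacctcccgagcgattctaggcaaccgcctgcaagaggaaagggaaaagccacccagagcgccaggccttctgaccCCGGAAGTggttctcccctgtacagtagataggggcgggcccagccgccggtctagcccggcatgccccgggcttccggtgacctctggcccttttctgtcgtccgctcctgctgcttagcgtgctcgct
Timm17a, chr1:135313688-135313987, minus strand: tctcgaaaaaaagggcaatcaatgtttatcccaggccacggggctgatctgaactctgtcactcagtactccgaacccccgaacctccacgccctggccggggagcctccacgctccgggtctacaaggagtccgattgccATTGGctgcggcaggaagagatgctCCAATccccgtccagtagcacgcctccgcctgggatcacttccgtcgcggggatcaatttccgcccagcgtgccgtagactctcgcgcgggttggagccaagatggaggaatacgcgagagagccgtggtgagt
Timm17b, chrX:7899086-7899385, plus strand: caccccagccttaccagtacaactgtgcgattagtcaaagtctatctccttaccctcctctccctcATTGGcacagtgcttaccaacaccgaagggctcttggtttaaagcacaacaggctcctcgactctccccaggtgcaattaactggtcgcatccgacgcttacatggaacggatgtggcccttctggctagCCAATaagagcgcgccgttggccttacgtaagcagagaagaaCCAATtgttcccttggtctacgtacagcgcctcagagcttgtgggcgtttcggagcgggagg

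The 300-base window of Slc25a5 held 0 matches and that of Slc25a4 held 2, both CCAAT boxes. Only the exact letters given above were counted, so a window with 0 matches can still hold another form of a motif. Slc25a16 had 0 matches and Tomm70a had 1, an ETS core. Timm17a held 2 CCAAT boxes and Timm17b 3. Promoter entries were found for 56 of the 69 genes, 36 carriers and 20 import genes. The CCAAT box stood in 18 of the 36 carriers (50%) and 6 of the 20 import genes (30.0%), against 42.0% of the 14452 array genes with an entry. The ETS core stood in 1 carrier (2.78%) and 6 import genes (30.0%), against 6.62%. Those 6 were Tomm70a, Timm23, Timm10, Timm10b, Timm29 and the undetected Timm8a2, whose log2 ratios, where detected, had both signs. The E-box stood in 7 carriers (19.4%) and 5 import genes (25.0%), against 10.2%. The remaining motifs were each in at most 2 carriers and 1 import gene, and the ERR element in 1 gene, Timm8b, against 0.401% of array genes. A match is a description of letters and not a site of binding.

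Other nucleotide and cofactor carriers held both the lowest and the highest ratios of the family. Slc25a16, a carrier linked to coenzyme A, had 854 with Phf21a siRNA and 311 with control siRNA on its only probe set, 2.74-fold higher (1.45 ± 0.52). Slc25a32, which brings folate and flavin cofactor into mitochondria, had 639 with Phf21a siRNA and 1221 with control siRNA and was 1.91-fold lower (-0.93 ± 0.49). Its other probe sets were at -1.34 (178 with Phf21a siRNA, 450 with control siRNA) and -1.26, so 3 of 3 were past 1.5-fold. Slc25a36 and Slc25a33, both carriers of pyrimidine nucleotides, were at -0.57 ± 0.48 (763 with Phf21a siRNA, 1130 with control siRNA) and -0.48 ± 0.50 (711 with Phf21a siRNA, 993 with control siRNA). Slc25a36 had 3 of 3 detected probe sets below 0, between -0.72 and -0.27. The 2 dim carriers Slc25a42, which takes up coenzyme A in exchange for ADP, and Slc25a47, a carrier of liver, were within their local spreads of 0, at -0.67 ± 0.70 (80.4 with Phf21a siRNA, 128 with control siRNA) and -0.69 ± 0.70 (80.5 with Phf21a siRNA, 130 with control siRNA). Slc25a24 and Slc25a25, which exchange ATP-Mg for phosphate, lay at -0.01 ± 0.31 and 0.21 ± 0.57, with a dim Slc25a25 probe set at 12.5 with Phf21a siRNA, under the floor of 12.9, and 60.5 with control siRNA. Further members were Slc25a51, the NAD carrier, at 0.19 ± 0.47 with probe sets down to -0.50, and Slc25a17, the peroxisomal member, at 0.16 ± 0.45. The 12 detected nucleotide and cofactor carriers, with Slc25a4 and Slc25a5 included, had a median of -0.25. Of these 1 passed 1.5-fold upward and 4 downward, with Slc25a5, Slc25a42 and Slc25a47 among the 4. Together these made up 41.7% of the role, against 29.0% of all detected genes past 1.5-fold in either direction.

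The 6 detected genes grouped as phosphate, carboxylate and carnitine carriers, Slc25a35 of unknown substrate among them, had a median of -0.03. Of these 1 (16.7%), Slc25a10, lay further from 0 than its local spread, against 33.1% of all detected genes. Slc25a3, which imports the phosphate for ATP synthesis, had 19312 with Phf21a siRNA and 17926 with control siRNA (0.11 ± 0.29). Slc25a1, which exports citrate for fatty acid synthesis, was at -0.16 ± 0.45 (1797 with Phf21a siRNA, 2009 with control siRNA), and Slc25a11, the oxoglutarate carrier of the malate-aspartate shuttle, at -0.18 ± 0.46 (1829 with Phf21a siRNA, 2071 with control siRNA). Each of these 3 lay within its local spread. Slc25a10, the dicarboxylate carrier, had 685 with Phf21a siRNA and 1011 with control siRNA (-0.56 ± 0.50), and its second probe set gave -0.13. Slc25a20, which carries acylcarnitines in for fatty acid oxidation, had 687 with Phf21a siRNA and 563 with control siRNA (0.29 ± 0.52). Slc25a35, of unknown substrate, passed 1.5-fold at 0.64 ± 0.88, but with a signal of 64.0 with Phf21a siRNA and 41.1 with control siRNA the control value lay under the detection limit, and raising it to that limit gave 0.32. Slc25a35 was the 1 gene (16.7%) past 1.5-fold upward of the 6 detected with this role, and 0 passed it downward. These counts stand against 15.1% of all detected genes higher and 13.9% lower.

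Of the 11 detected amino acid and glutathione carriers 8 were above 0, against 52.2% of all detected genes, and the median was 0.13. Only 1 (9.09%), Slc25a44, lay further from 0 than its local spread, against 33.1% of all detected genes. It was also the 1 gene past 1.5-fold upward, and 0 passed it downward, against 15.1% and 13.9% of all detected genes. Slc25a44, which takes branched-chain amino acids into mitochondria, had 964 with Phf21a siRNA and 580 with control siRNA, 1.66-fold higher (0.73 ± 0.51). A second probe set was alike at 0.74 (465 with Phf21a siRNA, 279 with control siRNA), while another, dim one went the other way at -0.95 (47.1 with Phf21a siRNA, 91.0 with control siRNA), and the average of the 3 was 0.17, under 1.5-fold. Slc25a13, an aspartate-glutamate carrier of the malate-aspartate shuttle, had 1027 with Phf21a siRNA and 732 with control siRNA (0.49 ± 0.50), whereas its paralog Slc25a12 was at 0.04 ± 0.42 (2852 with Phf21a siRNA, 2767 with control siRNA). Slc25a39, the glutathione carrier, had 2750 with Phf21a siRNA and 2098 with control siRNA (0.39 ± 0.42). It had 4 of 4 detected probe sets above 0, up to 0.81 on its brightest, which ends in _x_at and is past 1.5-fold (12961 with Phf21a siRNA, 7383 with control siRNA). Slc25a29, for basic amino acids, had 5 of 5 above 0, from 0.18 to 0.54. Slc25a38, which supplies glycine for haem, was at -0.46 ± 0.53 and Slc25a15, the ornithine carrier, at -0.26 ± 0.54. The other detected genes of this role, Slc25a22 for glutamate, Slc25a26 for S-adenosylmethionine, Slc25a40 and Slc25a45, ran from -0.05 to 0.17.

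The iron carriers Slc25a28 and Slc25a37, the mitoferrins, were at -0.31 ± 0.54 (618 with Phf21a siRNA, 768 with control siRNA) and -0.16 ± 0.54 (323 with Phf21a siRNA, 361 with control siRNA). Of the uncoupling proteins Ucp1 was not detected, with 2.92 with Phf21a siRNA and 23.3 with control siRNA. Ucp3, the muscle form, was not detected on either of its probe sets, with signals from 12.2 to 49.3. Their relatives were detected. Slc25a30 had 3022 with Phf21a siRNA and 2101 with control siRNA (0.52 ± 0.43), and 4 of 4 detected probe sets lay above 0, between 0.31 and 0.68. Slc25a14 was at 0.44 ± 0.53, and the dim Slc25a27, a form of brain, at -0.63 ± 0.71 (68.6 with Phf21a siRNA, 106 with control siRNA), or -0.55 after loess, under 1.5-fold. Slc25a46, an outer membrane member that shapes mitochondria, was at -0.26 ± 0.45. Slc25a53, with no assigned substrate, was dim and at -0.65 ± 0.62 (129 with Phf21a siRNA, 203 with control siRNA). Its second probe set was at -0.35, and their average of -0.50 is under 1.5-fold. The 10 undetected carriers, Ucp1 and Ucp3 among them, had signals between 1.03 and 49.3. Besides these and Slc25a31 they were Slc25a2, Slc25a18, Slc25a23, Slc25a34, Slc25a41, Slc25a48 and Slc25a54.

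**Figure D3:**
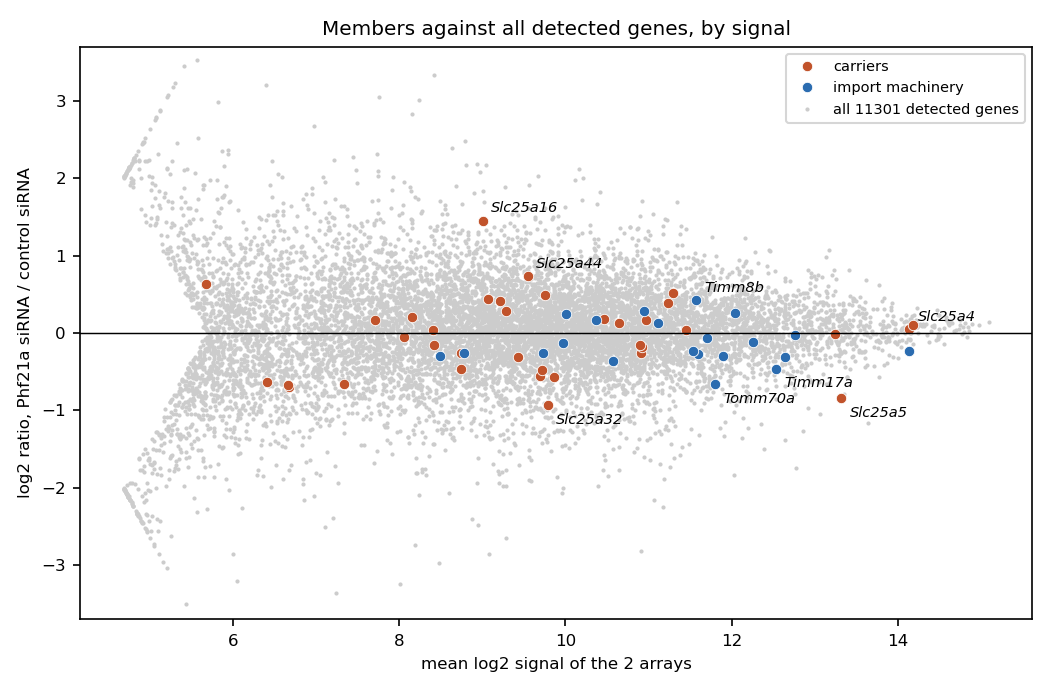
Log2 ratio (Phf21a siRNA over control siRNA) against the mean log2 signal of the 2 arrays for carriers, import genes and all 11301 detected genes in grey. Slc25a5, at -0.84, lies at a signal where the local spread is 0.30, and the import genes sit mostly in the brighter part with ratios between -0.66 and 0.42.

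Of the 7 detected genes grouped with the outer membrane complex and its receptors, the cytosolic Tomm34 included, 6 were below 0, with a median of -0.25. Among all detected genes 52.2% were above 0. Of the 7 genes 1 (14.3%), Tomm70a, passed 1.5-fold downward, near the 13.9% of all detected genes lower by that size. Tomm70a, the receptor that docks carrier precursors and their chaperones, had 2846 with Phf21a siRNA and 4493 with control siRNA. It was 1.58-fold lower (-0.66 ± 0.39), and 4 of 4 detected probe sets lay below 0, between -0.99 and -0.30. Tomm20, the presequence receptor, had 16552 with Phf21a siRNA and 19357 with control siRNA (-0.23 ± 0.29), and 6 of 6 probe sets lay below 0, between -0.68 and -0.19. Tomm22, the central receptor, was at -0.30 ± 0.37 (3428 with Phf21a siRNA, 4230 with control siRNA) with a probe set ending in _x_at at 0.35, so that their average was 0.02, and Tomm40, the channel, at -0.27 ± 0.41 (2803 with Phf21a siRNA, 3390 with control siRNA). Tomm40l, its paralog, was at -0.25 ± 0.54. The small subunit Tomm7 was at -0.06 ± 0.40, with a brighter _x_at probe set at 0.08. The cytosolic chaperone Tomm34, at 0.17 ± 0.46, was the 1 gene of the 7 above 0. The testis form Tomm20l was not detected.

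The TIM23 translocase had paralogs of opposite sign. Timm17a had 5043 with Phf21a siRNA and 6934 with control siRNA (-0.46 ± 0.34), and Timm17b, its paralog, was at 0.28 ± 0.45 (2168 with Phf21a siRNA, 1783 with control siRNA) with a second probe set at 0.50. The log2 ratio of Timm17a was thus lower than that of Timm17b, with a difference of -0.74. Timm23, the channel protein, was at -0.31 ± 0.33 (5755 with Phf21a siRNA, 7135 with control siRNA) and Timm21, which contacts the outer membrane complex, at -0.26 ± 0.50. Timm50, the receptor of TIM23, was at -0.13 ± 0.47 and at -0.93 on its other detected probe set (156 with Phf21a siRNA, 298 with control siRNA), and Timm44, which anchors the import motor, at 0.13 ± 0.44. None of the 6 genes passed 1.5-fold on its brightest probe set, against 29.0% of all detected genes in either direction. Of the 6 genes 4 were below 0 and 2 above, where 52.2% of all detected genes were above 0.

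On the carrier import route 5 of 8 detected genes were below 0, with a median of -0.07 and 0 past 1.5-fold. Among all detected genes 52.2% were above 0 and 29.0% past 1.5-fold in either direction. Timm22, the channel through which carriers enter the inner membrane, was at -0.36 ± 0.47 (1347 with Phf21a siRNA, 1728 with control siRNA). The small chaperones Timm9 and Timm10, which escort carriers across the intermembrane space, were at -0.30 ± 0.52 (326 with Phf21a siRNA, 401 with control siRNA) and -0.23 ± 0.41 (2734 with Phf21a siRNA, 3208 with control siRNA), Timm13 at -0.11 ± 0.35 and Timm8a1 at -0.03 ± 0.33. Timm8b, a relative of Timm8a1, was above 0 and just past its local spread, with 3524 with Phf21a siRNA and 2627 with control siRNA (0.42 ± 0.41). Timm10b, which ties the chaperones to TIM22, was at 0.26 ± 0.37, with a dim probe set at 1.10 (53.0 with Phf21a siRNA, 24.7 with control siRNA), the 1 import probe set past 1.5-fold upward, and Timm29 at 0.24 ± 0.46. Timm8a2 was not detected.

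**Figure D4:**
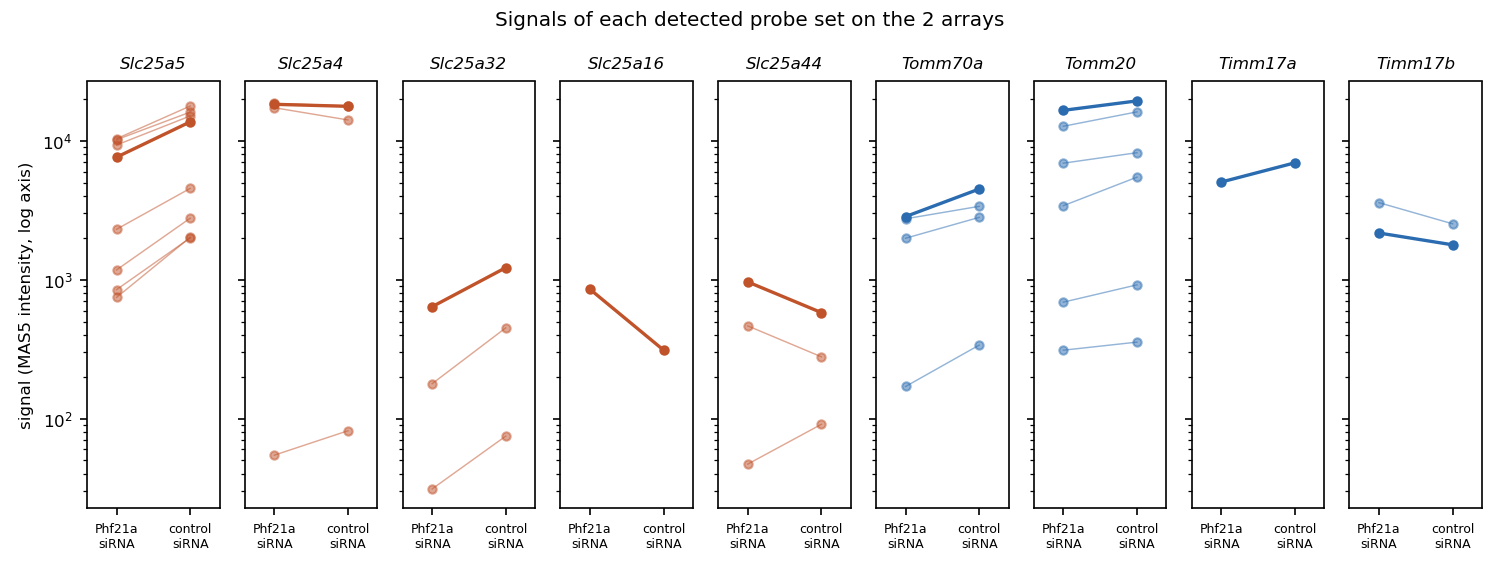
Signals of each detected probe set with Phf21a siRNA (left point) and control siRNA (right point) on a log axis, for 9 named genes, the thick line being the probe set that stands for the gene. All 8 lines of Slc25a5 and all 6 of Tomm20 are lower on the Phf21a siRNA side, whereas Slc25a4 is nearly level at the top and Slc25a16 is higher on that side.

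Probe sets of a gene are not separate observations, as they read the same 2 RNA samples, but they show how far a ratio depends on the probes. Of the 31 members with several detected probe sets 21 had them all on the same side of 0, 8 above and 13 below, against 61.4% of all genes with at least 2 detected probe sets. Carriers gave 12 of 19 and import genes 9 of 12. Among all genes with at least 4 detected probe sets 39.2% had a single direction. Members of that kind were Slc25a5, Tomm20 and Tomm70a below 0, and Slc25a29, Slc25a30, Slc25a39 and Timm10b above 0, while Slc25a4 was mixed.

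Few other genes of the carrier and import routes passed 1.5-fold, against 29.0% of all detected genes in either direction. The share further from 0 than the local spread was 29.4% for the carrier partners and 23.8% for the import partners listed below. Among all detected genes that share was 33.1%. Of the 20 listed proteins that work beside the carriers 17 had a probe set of their own and were detected, with a median of 0.12, 0 past 1.5-fold upward and 1 downward. Sfxn2, a sideroflexin, was at -0.72 ± 0.58 (202 with Phf21a siRNA, 332 with control siRNA), Abcb8, an inner membrane ABC transporter, at 0.57 ± 0.51 (755 with Phf21a siRNA, 510 with control siRNA), and Mtch2, a carrier-like protein of the outer membrane, at 0.52 ± 0.32 (9877 with Phf21a siRNA, 6873 with control siRNA). Of the 23 listed import partners 21 were detected, with a median of -0.03, 0 past 1.5-fold upward and 1 downward. Mtx3, a metaxin of the outer membrane, was at -0.84 ± 0.58 (180 with Phf21a siRNA, 323 with control siRNA), Hspe1, the small matrix chaperonin, at -0.57 ± 0.30 (8744 with Phf21a siRNA, 13009 with control siRNA) and at -1.17 on its other probe set, and Xpnpep3, a mitochondrial aminopeptidase, at -0.56 ± 0.52 (539 with Phf21a siRNA, 793 with control siRNA). Against the median of -0.23 for the import machinery, the 33 detected complex I subunits had a median of 0.20 with 28 above 0, and the 76 mitochondrial ribosomal proteins a median of -0.0039 with 36 above 0. No test of these differences was possible with 1 array per group.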

How the data were processed

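The deposited values are MAS5 signal intensities on a linear scale that the authors made, per the submitters' processing notes, which give no version. With 2% of probe sets trimmed at each end the mean signal was 500.003 on both arrays, so total signal was made equal and a change in messenger RNA per cell cannot be seen. Of 45101 probe sets 64 were controls, 34945 had 1 gene symbol in the platform annotation, 932 several and 9160 none.

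Signals were raised to the pooled 25th percentile (12.9) before log2. A gene was represented by its detected probe set with the highest mean log2 signal, those ending in _x_at only where no other was detected. The local spread is the 84th minus the 16th percentile of log2 ratios, divided by 2. Genes named were Phf21a, a set of core carriers and import subunits, all members past 1.5-fold, and the 3 partners furthest from 0 in each list; other members were named after their values were seen, as were the 6 promoters and 8 motifs chosen. Members and lists were chosen with earlier results of these data known. The alternatives tried were median centring, quantile normalization, loess, scaling to control RNAs, a higher floor, a pseudocount of 1, averaged probe sets, no suffixed probe sets, bright genes only, no filter and, added after seeing the data, _x_at probe sets ranked with the others. The procedure was run on simulated data whose planted shifts were larger than the log2 ratio of any member. That run cannot say how smaller differences are recovered. Python 3.11.15 with numpy 2.4.6, pandas 2.3.3, statsmodels 0.14.6 and matplotlib 3.10.9 was used.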

Additional observations from a re-analysis of the deposited data

How the results depend on the processing

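No paired analysis was possible because each group held 1 sample, and no replicate could be left out. Medians were counted as moved from 0.1 on the log2 scale. Scaling to the poly-A controls moved the carrier median to -0.71 (1 gene at least 1.5-fold higher, 23 lower) and the import median to -0.95 (16 lower), and moved Slc25a35 to -0.087. Scaling to the hybridisation controls gave -0.21 for carriers (1 higher, 10 lower) and -0.45 for import machinery (3 lower). Leaving out suffixed probe sets gave 1 import gene higher and 2 lower. Bright genes alone held 2 carriers at least 1.5-fold lower. Without a filter on low signals the import median was -0.13 and the difference between carriers and import machinery 0.13, against 0.24 with the filter. That setting adds undetected genes, some with both signals raised to the floor and so with a ratio of exactly 0. Averaging probe sets gave a difference of 0.16. Ranking _x_at probe sets with the others, an alternative chosen after seeing the data, changed the probe set of 3 carriers and 3 import genes, put Slc25a39 at 0.81 and so 4 carriers at least 1.5-fold higher, and put Tomm7 at 0.08; both medians and their difference kept their values. The difference was within 0.1 of 0.24 under the remaining alternatives. Calls of 1.5-fold were also lost for Slc25a35 and Slc25a44 with hybridisation controls (0.41 and 0.51). Without suffixed probe sets Timm44 was at -0.13. Of 37 named genes 32 moved by less than their local spread from the value reported under every alternative that gave them a value, poly-A scaling aside. The exceptions were Slc25a44, at 0.17 when probe sets were averaged, Hspe1, at -0.87 there and -1.17 without suffixed probe sets, and, without suffixed probe sets, Slc25a5 at -1.24, Timm50 at -0.93 and Slc25a4, left with its dim probe set, at -0.58. MAS5 subtracts mismatch signal, and dim genes such as Slc25a35, Slc25a42 and Slc25a47 have ratios no larger than the scatter at their signal.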
